A study of Mus musculus with 15 samples.

Results

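The genes described here were Hnf4a, Nr1i2, Nr1i3, Nr1h3, Rxra, Rora, Nr5a2 and Thrb, which encode nuclear receptors that hepatocytes use to set their metabolic programme. They were chosen by name as a family of receptors and are 8 of the 37991 gene identifiers in the count table and 8 of the 14258 genes that passed the filter on low counts. Whole livers of female C57BL/6 mice were profiled by RNA sequencing in 3 groups of 5 libraries. The young WT mice were wild type at 90 days, the old WT mice were wild type at 600 days, and the old KO mice were 600 days old and carried a germline deletion of ribosomal protein S6 kinase 1 (S6K1, gene Rps6kb1) in every tissue. Wild-type and knockout animals came from crosses of heterozygous parents and ate chow. No young knockout group is among the libraries, so genotype could be compared at 600 days alone, and age could be compared among wild-type animals alone.

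Nuclear receptors are transcription factors that bind DNA through a pair of zinc fingers and change the coactivators or corepressors they hold when a small lipophilic ligand occupies them. HNF4alpha (Hnf4a) and LRH-1 (Nr5a2) maintain hepatocyte identity and bile acid and lipoprotein genes, PXR (Nr1i2) and CAR (Nr1i3) sense foreign compounds, LXRalpha (Nr1h3) senses oxysterols, TRbeta (Thrb) is the main thyroid hormone receptor of liver, and RORalpha (Rora) feeds into the circadian clock. PXR, CAR, LXRalpha and TRbeta act as heterodimers with RXRalpha (Rxra), while HNF4alpha binds as a homodimer, and LRH-1 and RORalpha bind as monomers. Much of the activity of these receptors is set by ligand, phosphorylation and cofactors, none of which a transcript count measures.

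Each library held between 21801754 and 38065359 counted reads, and the lowest count of any of the 8 genes in any library was 982 reads. Counting error was not separated from the spread between animals. That spread was narrowest for Thrb in old KO, with a coefficient of variation of 4.56%, where counting error weighs most. Expression is given as CPM, the read count scaled to library size and corrected by the trimmed mean of M values (TMM). Rps6kb1 lay between 15.2 and 20.8 CPM in the old KO libraries and between 33.3 and 45.4 CPM in the 10 wild-type libraries, with no overlap. The summed level of 9 hepatocyte markers was 85789 to 133523 CPM in young WT, 97810 to 143747 CPM in old WT and 116291 to 151453 CPM in old KO. In bulk tissue, fewer cells of a type and less RNA per cell cannot be told apart.

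Thrb, Nr5a2 and Hnf4a are shown here by sequence because Thrb was the only one of the 8 genes to pass the test with age, Nr5a2 had the next largest difference, and Hnf4a was the most abundant. Each line gives 250 bases 5′ of a transcription start from the RefSeq promoter table for GRCm38.p6, read along the gene's strand, with the position of its single exact match in NCBIM37, the build of the counts. Capitals mark AGGTCA, the hexamer that most nuclear receptors contact, or GTTAAT, the core bound by HNF1, on either strand.
Thrb, upstream start, chr14:18493224-18493473, plus strand: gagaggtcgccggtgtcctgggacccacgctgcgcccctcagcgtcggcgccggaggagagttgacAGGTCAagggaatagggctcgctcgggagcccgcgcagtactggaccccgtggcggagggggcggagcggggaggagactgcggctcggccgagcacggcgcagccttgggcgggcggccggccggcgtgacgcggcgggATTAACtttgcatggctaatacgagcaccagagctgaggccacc
Thrb, downstream start, chr14:18813908-18814157, plus strand: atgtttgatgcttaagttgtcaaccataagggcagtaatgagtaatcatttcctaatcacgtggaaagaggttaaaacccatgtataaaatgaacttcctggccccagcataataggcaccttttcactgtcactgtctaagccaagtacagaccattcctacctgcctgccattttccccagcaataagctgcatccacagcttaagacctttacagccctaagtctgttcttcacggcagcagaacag
Nr5a2, upstream start, chr1:138857026-138857275, minus strand: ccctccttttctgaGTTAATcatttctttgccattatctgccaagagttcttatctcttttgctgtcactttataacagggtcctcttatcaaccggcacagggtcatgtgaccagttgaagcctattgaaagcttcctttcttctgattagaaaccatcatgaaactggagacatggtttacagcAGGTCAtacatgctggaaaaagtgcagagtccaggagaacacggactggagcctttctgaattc
Hnf4a, downstream start, chr2:163372641-163372890, plus strand: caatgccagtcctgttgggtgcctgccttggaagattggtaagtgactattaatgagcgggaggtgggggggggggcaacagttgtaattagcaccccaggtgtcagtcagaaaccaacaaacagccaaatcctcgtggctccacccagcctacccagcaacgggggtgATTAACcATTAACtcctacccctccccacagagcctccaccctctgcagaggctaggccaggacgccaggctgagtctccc

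The upstream Thrb sequence was 71.6% G and C, above the median of 52.4% over 32851 promoters, and held AGGTCA from position -184 and GTTAAT from position -44, counted back from the start site, whereas the downstream Thrb sequence was 44% G and C and held neither. The Nr5a2 sequence held AGGTCA at -64 and GTTAAT at -236, while the downstream Nr5a2 sequence, which is not shown, held neither. In the Hnf4a sequence, which lies 5′ of the start known as P1 that adult hepatocytes use, GTTAAT occurred at -81 and -74 and AGGTCA did not occur. The upstream Hnf4a sequence, also not shown, held neither. AGGTCA was present in 14% and GTTAAT in 6.43% of all promoters of the same length, and in 3 and 3 of the 13 promoters listed for the 8 genes. CAAAGTCCA, a stretch that HNF4 dimers prefer over other receptors, was in 0.384% of all promoters and in 0 of these 13. These are matches of letters in a short window, and gene counts do not separate the transcripts of one start from those of another.

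On a scale of CPM per kb of annotated exon, which corrects counts for annotated length, Hnf4a was the most abundant of the 8 genes in all 15 libraries (124 to 204 CPM per kb). It made up 35 to 44.7% of their summed level. Rxra (55.6 to 89.3 CPM per kb) and Nr1i3 (40 to 80.6) came next, with overlapping ranges and Rxra the higher of the pair in 10 of 15 libraries. Nr1h3 (28.7 to 39) and Nr1i2 (24.5 to 40.9) overlapped as well, with Nr1h3 above Nr1i2 in 11 of 15 libraries. Nr5a2 (12.2 to 19.4) lay below both, and Rora (7.18 to 10.1) and Thrb (4.53 to 9.35) were lowest and overlapped each other. The mean of Hnf4a was 2.09 times that of Rxra and 19.9 times that of Thrb. On this scale the xenobiotic sensor CAR was about as abundant in transcript as the shared partner RXRalpha, and PXR was lower than both. The scale divides by all annotated exons of a gene, 4414 bases from 9 transcripts for Nr1i3 and 2553 bases from 1 for Nr1i2. A gene with many annotated transcripts can thus be placed too low. Of the Nr1i3 bases, 2268 also overlap exons of another gene, so the order is approximate.

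**Figure D1:**
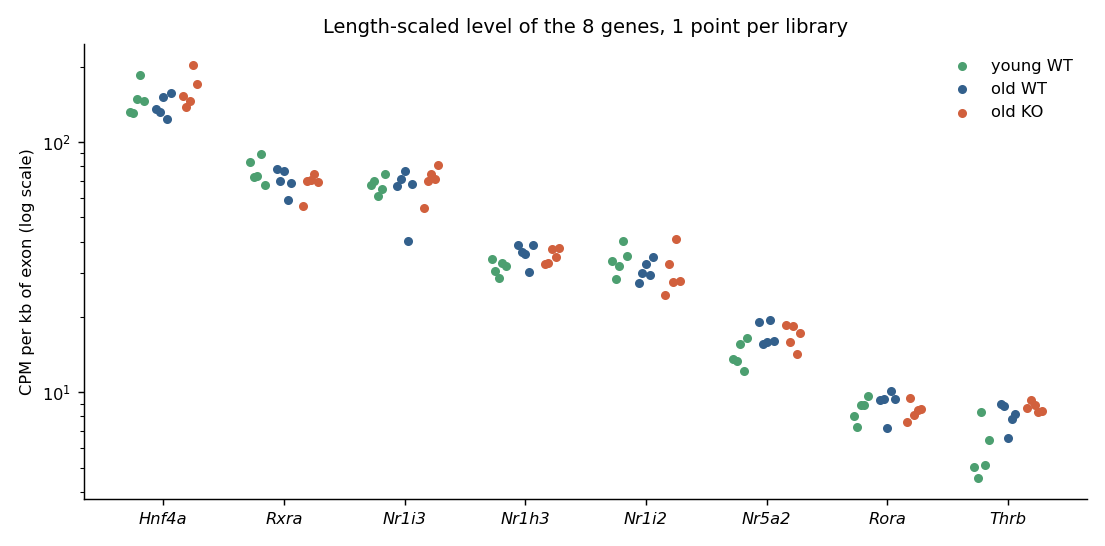
CPM per kb of exon (log axis) for each of the 8 genes, ordered by mean, with 1 point per library and colours for young WT, old WT and old KO. Hnf4a sits above the rest in all 15 libraries, from 124 to 204 CPM per kb, and Thrb reaches down to 4.53 in young WT.

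Comparing old WT with young WT livers asks how the transcripts of these receptors differed with age. Thrb rose 1.37-fold, and the other 7 genes did not pass the test, with fitted log2 fold changes from -0.14 to 0.27. Thus 1 of 8 genes was called higher and 0 lower, where 18.8% of all 14258 genes tested were called (9.92% higher and 8.91% lower). At an unadjusted p under 0.05 there were 3 of the 8 (Thrb, Nr5a2 and Nr1h3), against 33% of all genes. None of the 8 had groups that did not overlap, against 11.4% of all genes. The median absolute log2 fold change was 0.13 over the 8 genes and 0.21 over all genes tested.

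Comparing old KO with old WT livers asks how they differed with loss of S6K1 in old animals. None of the 8 genes was called by edgeR, DESeq2 or limma voom, and 0 had an unadjusted edgeR p under 0.05, where 0.533% of all genes were called (0.112% higher and 0.421% lower) and 11.6% had an unadjusted p under 0.05. The fitted log2 fold changes ran from -0.10 for Rora to 0.22 for Hnf4a, and their 95% intervals all lay between -0.31 and 0.48, so that larger differences than these in either direction were outside every interval. The ranges of the 2 groups overlapped for all 8 genes, against 3.2% of all genes without overlap. Median absolute log2 fold change was 0.08 over the 8 genes and 0.12 over all genes.

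In old KO against young WT livers, which differ in both age and genotype, Thrb was again the only gene called, with 1 higher and 0 lower of 8, where 23.3% of all genes were called (12% higher and 11.3% lower). Thrb was also the only one of the 8 whose groups did not overlap, against 13.9% of all genes. This comparison shares its young WT libraries with the age comparison and its old KO libraries with the genotype comparison, and the age and genotype comparisons share the old WT libraries, so the 3 are not independent.

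**Figure D2:**
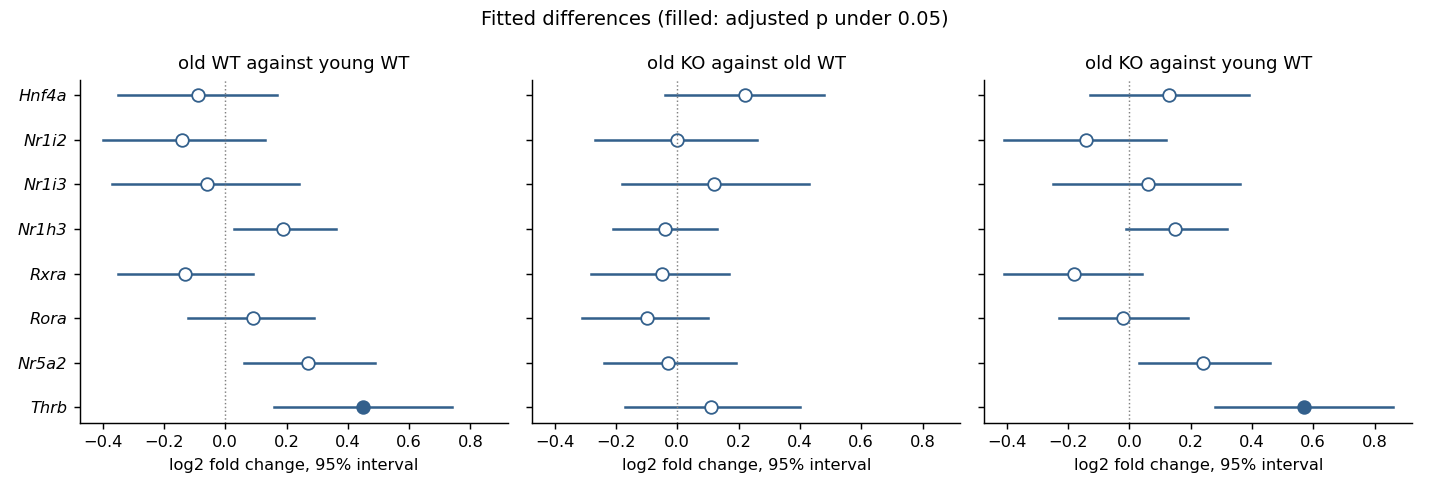
Fitted log2 fold change (points) and 95% interval (lines) of each of the 8 genes in the 3 comparisons, from the edgeR quasi-likelihood fit to 15 libraries, with filled points for an adjusted p under 0.05. Thrb is filled at 0.45 for old WT against young WT and at 0.57 for old KO against young WT, and no point is filled for old KO against old WT.

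Hnf4a, on chr2:163332544-163398646 of the plus strand, encodes the receptor that binds more hepatocyte promoters than almost any other factor. Its level was 659, 655, 744, 933 and 733 CPM in young WT 1, 2, 3, 4 and 6, 681, 660, 760, 621 and 786 CPM in old WT 1, 4, 5, 7 and 10, and 768, 694, 731, 1023 and 857 CPM in old KO 1, 2, 4, 5 and 6. All 3 ranges overlapped, and the highest values belonged to young WT 4 and old KO 5. The log2 fold change was -0.09 (SE 0.123, adjusted p = 0.658) with age and 0.22 (SE 0.123, adjusted p = 0.527) for old KO against old WT, the largest genotype difference among the 8 genes, with a 95% interval of -0.04 to 0.48. Its close paralogue Hnf4g was nearly absent, at 0.232 to 1.36 CPM.

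Nr5a2, on chr1:138740161-138857004 of the minus strand, encodes LRH-1, an activator of the bile acid genes Cyp7a1 and Cyp8b1. It measured 52.3, 51.1, 60, 46.8 and 63.5 CPM in young WT, 73.6, 59.6, 60.8, 74.6 and 61.8 CPM in old WT, and 71.4, 60.9, 70.9, 54.7 and 66 CPM in old KO, in the same order of libraries as above. Old WT 1 and 7 lay above every young WT library and the other 3 were within the young range. The log2 fold change was 0.27 with age (95% interval 0.06 to 0.49, adjusted p = 0.072) and 0.24 for old KO against young WT (0.03 to 0.46, adjusted p = 0.0942), and neither was called. Without young WT 6, the highest young library, both were called, at 0.34 (adjusted p = 0.0271) and 0.30 (adjusted p = 0.0384). Old KO and old WT differed by -0.03 on the log2 scale, with a 95% interval of -0.24 to 0.19.

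Nr1i2 (chr16:38248409-38294910, minus strand) encodes PXR, which induces Cyp3a genes in response to drugs and bile acids. The libraries held 85.7, 72.1, 81.2, 103 and 89.6 CPM in young WT, 69.7, 76.1, 83.1, 74.7 and 88.5 CPM in old WT, and 62.6, 82.7, 70.4, 104 and 70.8 CPM in old KO. The spread was widest in old KO, with a coefficient of variation of 20.9% against 13.1% in young WT and 9.43% in old WT, and old KO 5 alone lay above all old WT libraries. The log2 fold change was -0.14 with age (SE 0.126, adjusted p = 0.472) and 0.00 for old KO against old WT (95% interval -0.27 to 0.26).

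Nr1i3, on chr1:173144101-173150832 of the plus strand, encodes CAR, the inducer of Cyp2b genes. Values were 296, 307, 269, 285 and 328 CPM in young WT, 294, 314, 337, 177 and 300 CPM in old WT, and 240, 309, 328, 313 and 356 CPM in old KO. Old WT 7 stood at 177 CPM, apart from the other 4 old WT libraries at 294 to 337 CPM. Its summed hepatocyte markers (143747 CPM) were the highest of the old WT libraries, but Alb alone gave 114632 CPM of that sum. Single markers went both ways in old WT 7. Cyp2e1 was 3039 CPM against 5455 to 7349 CPM in the other 4, and Hpx was 4926 CPM against 2735 to 3873 CPM. The part of hepatocyte content in the Nr1i3 level was not tested. With age the log2 fold change was -0.06 (SE 0.144, adjusted p = 0.788), and it turned to 0.07 without old WT 7; for old KO against old WT it was 0.12 (adjusted p = 0.815), and it turned to -0.01 without that library. Of the 4414 exon bases of Nr1i3, 2268 overlap exons of Tomm40l on the other strand. Tomm40l was at most 15.2 CPM in any library, although it fell with age (log2 fold change -0.85, adjusted p = 0.0288). The strand setting of the counting was not given in the sources used here, so reads of the pair may not be fully separated.

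Nr1h3 (chr2:91024218-91042991, minus strand) encodes LXRalpha, which turns on cholesterol efflux and fatty acid synthesis genes and is also found in Kupffer cells, the macrophages of liver. Levels were 85.5, 76.6, 72.2, 82.6 and 80.3 CPM in young WT, 97.7, 91.8, 90.1, 76.4 and 98.1 CPM in old WT, and 81.7, 82.9, 94.5, 87.5 and 95.1 CPM in old KO. Of the 5 old WT libraries, 4 lay above every young one, and old WT 7 lay within the young range. The log2 fold change with age was 0.19 (95% interval 0.03 to 0.36, adjusted p = 0.0988) and was not called, while without old WT 7 it was 0.26 and was called (adjusted p = 0.0231). Old KO differed from old WT by -0.04 (95% interval -0.21 to 0.13). In the same comparison 4 of 10 macrophage markers fell (Cd68, Clec4f, Vsig4 and C1qa), and the list median was -1.09. The list summed to 152 to 274 CPM in old KO against 291 to 573 CPM in old WT. Over all genes 0.421% were called lower and the median log2 fold change was 0.00. The part of macrophages in the Nr1h3 level was not tested.

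Rxra, on chr2:27531960-27618477 of the plus strand, encodes the shared heterodimer partner. It was measured at 454, 396, 398, 488 and 369 CPM in young WT, 427, 383, 419, 319 and 375 CPM in old WT, and 304, 381, 385, 408 and 377 CPM in old KO. The groups overlapped throughout, with log2 fold changes of -0.13 with age (95% interval -0.35 to 0.09), -0.05 for old KO against old WT (-0.28 to 0.17) and -0.18 for old KO against young WT (-0.41 to 0.04). The summed CPM per kb of 4 partners, Nr1i2, Nr1i3, Nr1h3 and Thrb, was 1.6 to 2.24 times that of Rxra. That ratio, which was defined after the values were seen, averaged 1.82 ± 0.227 in young WT, 1.98 ± 0.157 in old WT and 2.13 ± 0.0687 in old KO (SD, n = 5 each), and an exact two-sided permutation test gave p = 0.214 with age and p = 0.103 for genotype (adjusted 0.214 and 0.206 over the 2 tests).

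Rora (chr9:68501593-69236053, plus strand) encodes RORalpha, an activator of the clock gene Arntl and of lipid genes. Its values were 105, 95.3, 116, 116 and 127 CPM in young WT, 122, 123, 94, 132 and 123 CPM in old WT, and 99.9, 124, 106, 111 and 112 CPM in old KO. Old WT 5, at 94 CPM, lay below the other 4 old WT libraries and below all young WT libraries, and the 3 groups overlapped. The log2 fold change was 0.09 with age (95% interval -0.12 to 0.29) and -0.10 for old KO against old WT (-0.31 to 0.10).

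Thrb, on chr14:18493474-18870602 of the plus strand, encodes TRbeta, through which thyroid hormone lowers cholesterol and raises fat oxidation in liver. The young WT libraries held 33.3, 30, 55.3, 33.9 and 42.8 CPM, the old WT libraries 59.4, 58.2, 43.6, 51.7 and 54 CPM, and the old KO libraries 57.2, 61.9, 58.6, 55.4 and 55.7 CPM. All 5 old KO libraries were above all 5 young WT libraries, by a narrow margin at 55.4 against 55.3 CPM, whereas young WT 3 lay within the old WT range. The log2 fold change with age was 0.45 (SE 0.137, 95% interval 0.16 to 0.74, adjusted p = 0.0317), which is 1.37-fold (1.12 to 1.67). For old KO against young WT it was 0.57 (SE 0.137, adjusted p = 0.0081), which is 1.48-fold (1.21 to 1.81). Old KO and old WT differed by 0.11 (95% interval -0.17 to 0.40, adjusted p = 0.817).

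The age call of Thrb depended on single libraries. Its adjusted p rose to 0.0828 without young WT 1, 0.0795 without young WT 2, 0.0815 without young WT 4, 0.0774 without old WT 1, 0.0686 without old WT 4 and 0.0522 without old WT 10, with log2 fold changes of 0.37 to 0.45, and it was 0.0737 in a fit of the 10 wild-type libraries alone. Without young WT 3, the young library with the most Thrb, the log2 fold change was 0.62 (adjusted p = 0.00244). The call for old KO against young WT held in all 15 fits that left out a library, with log2 fold changes of 0.48 to 0.73.

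**Figure D3:**
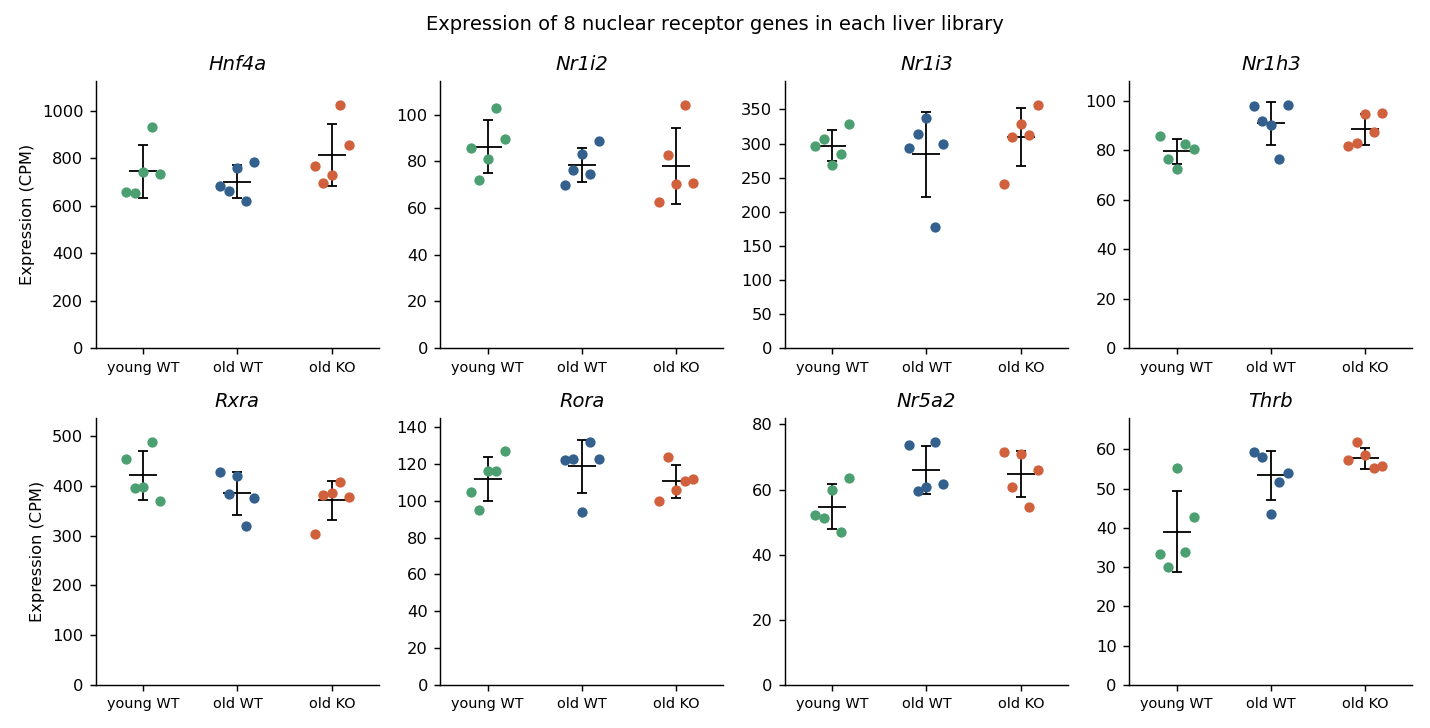
CPM of each of the 8 genes in the 15 libraries (axes start at 0), with 1 point per library and the mean ± SD of the 5 libraries of each group in black. For Thrb, 4 of the 5 young WT points lie below all old WT and old KO points, and for Nr1i3 old WT 7 lies apart at 177 CPM.

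Several of the 8 genes have a paralogue in liver that can bind similar DNA, and the log2 ratio of the paralogue to the gene was computed in each library, after 0.1 CPM was added to both. The ratios were chosen after the values were seen, 5 are described here, and p-values of an exact two-sided permutation test, whose smallest possible p is 0.00794, were adjusted over all 12 comparisons computed. Rxrg over Rxra was -5.79 ± 0.17 in young WT and -5.13 ± 0.15 in old WT (difference 0.66, p = 0.00794, adjusted p = 0.0476, exact permutation test), and Rxrg itself stood at 6.42 to 9 CPM in young WT and 7.88 to 12.8 CPM in old WT. Thra over Thrb was lower in old WT by -0.81 (p = 0.0159, adjusted p = 0.0476, exact permutation test). Its denominator Thrb was itself called higher with age in the same libraries, so this ratio is not separate from that call. Thra alone was not called with age by edgeR (log2 fold change -0.30, adjusted p = 0.157). Hnf4g over Hnf4a differed by 0.80 (p = 0.0159, adjusted p = 0.0476, exact permutation test), on Hnf4g values of 0.302 to 0.663 CPM in young WT and 0.662 to 1.36 CPM in old WT. For Nr1h2 over Nr1h3 the difference was -0.31 (adjusted p = 0.0571) and for Rxrb over Rxra 0.11 (adjusted p = 0.397), and neither passed. In old KO against old WT none of the 5 ratios passed, with differences of -0.49 to 0.04.

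The ratio calls sat close to the threshold. With 1 library left out, Rxrg over Rxra passed in 11 of 15 runs, Thra over Thrb in 7 and Hnf4g over Hnf4a in 6, with differences of 0.60 to 0.71, -0.94 to -0.64 and 0.62 to 0.93. Rxrg over Rxra did not pass without old WT 1, 4, 5 or 7 (adjusted p 0.0635 to 0.0762). Thra over Thrb did not pass without young WT 1, 2 or 4 or without any 1 of the 5 old WT libraries (adjusted p 0.0635 to 0.0952). Hnf4g over Hnf4a did not pass without any 1 of the 5 young WT libraries or without old WT 1, 4, 5 or 7 (adjusted p 0.0571 to 0.0762). Nr1h2 over Nr1h3 passed only without young WT 6 (-0.37, adjusted p = 0.0317).

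**Figure D4:**
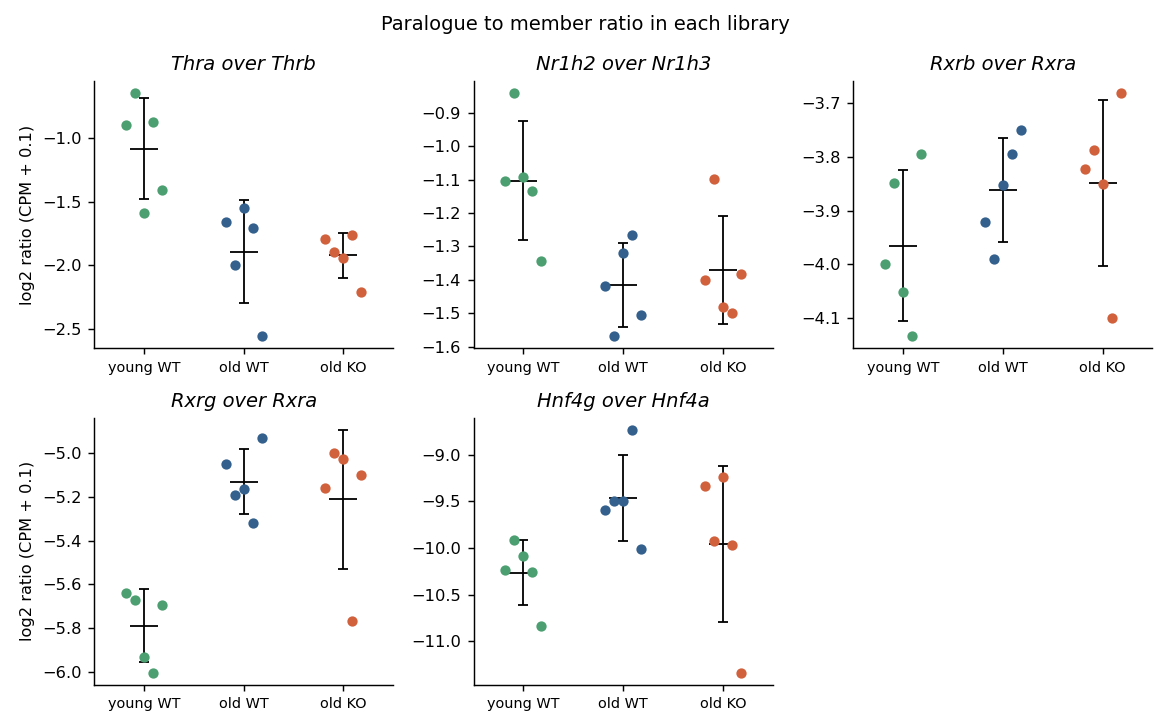
log2 ratio of CPM (0.1 CPM added to both) of each paralogue to the gene it resembles, with 1 point per library and the mean ± SD of 5 libraries in black. Rxrg over Rxra is higher in all 5 old WT libraries than in all 5 young WT libraries.

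The rest of the nuclear receptor family was described from a list of 41 genes, of which 33 were tested. With age 6 rose and 1 fell (21.2% called, against 18.8% of all genes), with a list median of 0.07, and 0 were called between old KO and old WT. Nr2f6 rose by 0.49 (adjusted p = 0.00844), Rxrg by 0.54 (adjusted p = 0.0226) and the oestrogen receptor Esr1 by 0.70 (adjusted p = 0.0391). Nr1d1, the clock repressor REV-ERBalpha that competes with ROR proteins for DNA, had a log2 fold change of -1.46 (33.6 ± 11.7 to 12.2 ± 7.75 CPM, adjusted p = 0.0368). In place of 7, 4 were called without young WT 2 or without old WT 1, 4 or 10, and 10 without old KO 6. The smallest genotype p-values belonged to Ppard (1.01, adjusted p = 0.26) and Nr4a2 (-1.30, adjusted p = 0.262). Against young WT, old KO had 7 higher and 2 lower (27.3%, against 23.3% of all genes). The number called was 5 without old KO 1, 11 without old KO 6 and 12 with DESeq2.

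Among 21 coregulators, 0 rose and 4 fell with age (19% called, against 18.8% of all genes), and the list median was -0.14 against 0.01 for all genes. Med1, the Mediator subunit that nuclear receptors contact, went from 52.3 ± 3.72 to 41.8 ± 1.56 CPM (-0.32, adjusted p = 0.00292). The coactivator Ppargc1a, which partners HNF4alpha in gluconeogenesis, was at 39.8 ± 21.5 CPM in young WT and 20.1 ± 8.76 CPM in old WT (-0.98, adjusted p = 0.0443). Ppargc1b fell too (-0.68, adjusted p = 0.0457). The count was 2 without young WT 2, old WT 5 or old KO 1, 4 or 5 and under upper quartile scaling or limma voom, and 1 without young WT 4 or old WT 1, 4 or 10. It was 6 without young WT 6 and 5 with DESeq2. None was called by genotype, where Nrip1 (-0.27, adjusted p = 0.475) and Ncoa1 (-0.14, adjusted p = 0.48) came closest. In old KO against young WT livers 0 rose and 6 fell (28.6%, against 23.3% of all genes).

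Of 19 other hepatocyte transcription factors tested, only Cebpa passed with age (157 ± 7.68 to 198 ± 27.8 CPM, log2 fold change 0.33, adjusted p = 0.0453). That was 5.26% of the list, against 18.8% of all genes. The count was 0 without young WT 1, 2 or 4, without old WT 4 or 5 and with no filter on low counts, and it was 2 without young WT 6 or old KO 1, in a fit of the 10 wild-type libraries alone and with DESeq2. The list median was -0.16 with age and 0.10 between old KO and old WT, where 0 were called and Foxa2 (0.39, adjusted p = 0.281) and Gata6 (0.30, adjusted p = 0.348) had the smallest p-values. In old KO against young WT livers 3 rose and 1 fell (21.1%, against 23.3% of all genes). Without young WT 1 or 2 or old KO 5, and in a fit of the 10 libraries compared, 2 in place of 4 were called.

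Genes that the 8 receptors are known to control were listed from general knowledge, with earlier results of these data known, 77 in all, of which 76 were tested. With age 15 rose and 10 fell, which is 32.9% of them against 18.8% of all genes, and the median absolute log2 fold change was 0.48 against 0.21. Because of how the genes were chosen, and because they were not matched to all genes in level, this comparison is a description and not a test. The count was 17 to 26 with 1 library left out. Between old KO and old WT edgeR and limma voom called 0 and DESeq2 called 2, with a median log2 fold change of 0.12. In old KO against young WT livers 20 rose and 13 fell (43.4%, against 23.3%). The changes with age went both ways within most lists, and the list medians lay between -0.29 and 0.40.

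LRH-1 targets included the largest called fall among the 76 target genes, in Cyp8b1, the sterol 12alpha-hydroxylase that sets the bile acid mix, from 734 ± 223 to 263 ± 65.1 CPM (log2 fold change -1.48, adjusted p = 0.00231). Apoa1, of high-density lipoprotein, had a log2 fold change of -0.69 (adjusted p = 0.0241), while Abcb11, the bile salt export pump, rose by 0.45 (adjusted p = 0.0337). Nr5a2 itself was not called in the same comparison. Among 15 HNF4alpha targets, Pklr, of glycolysis, rose by 0.92 (adjusted p = 0.00693), Apoc2 rose by 0.66 (adjusted p = 0.00941), and Cps1, of the urea cycle, went from 7839 ± 2587 to 3256 ± 2023 CPM (-1.27, adjusted p = 0.0197). The number called was 1 of 8 LRH-1 targets without young WT 2 or old WT 5 in place of 3, and 5 of 15 HNF4alpha targets without young WT 6 in place of 3. With all libraries, 37.5% of the LRH-1 and 20% of the HNF4alpha targets were called, against 18.8% of all genes.

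For the xenobiotic sensors, 4 of 9 PXR and 4 of 11 CAR targets were called with age (44.4% and 36.4%, against 18.8% of all genes). The transporter Abcb1a rose by 1.25 (adjusted p = 0.00451), the glutathione transferases Gstm1 and Gstm2 by 0.68 (adjusted p = 0.00507) and 0.62 (adjusted p = 0.0319), and the electron donor of cytochrome P450 enzymes, Por, had a log2 fold change of -0.88 (adjusted p = 0.0089). Alas1, the first enzyme of haem synthesis, was at 536 ± 217 CPM in young WT and 197 ± 56.4 CPM in old WT (-1.45, adjusted p = 0.00266). Cyp2c29 rose by 0.79 (adjusted p = 0.00509) and Cyp2c55, at 0.704 ± 0.217 CPM in young WT, by 1.50 (adjusted p = 0.0347), while the exporter Abcc3 had -0.43 (adjusted p = 0.0255). Gstm and Cyp2c genes belong to families of near-identical copies, and their counts are uncertain. Without young WT 1 or 2, the CAR count was 2.

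LXRalpha targets did not move together, with 2 of 11 higher and 2 lower (36.4% called, against 18.8% of all genes). Scd1, the stearoyl-CoA desaturase, rose from 1047 ± 390 to 3295 ± 1356 CPM (1.65, adjusted p = 0.00475) and the lipid transfer gene Pltp rose by 0.91 (adjusted p = 0.0368), but Mylip, which degrades the LDL receptor, and the cholesterol exporter Abca1 had log2 fold changes of -0.87 (adjusted p = 0.00438) and -0.34 (adjusted p = 0.0274). The LXR count was 2 without young WT 3 or 4 or old WT 5 or 10. Of 8 RORalpha targets, 37.5% were called, against 18.8% of all genes. The clock genes Npas2 and Cry1 rose by 0.99 (adjusted p = 0.00499) and 0.69 (adjusted p = 0.0373) and Nr1d1 fell as above, and 1 target was called without young WT 2 or 4 or old WT 4, 7 or 10. The hour of tissue collection was not given in the sources used here.

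Where Thrb rose, its 8 listed targets had a median of -0.29 with age, with 1 higher and 1 lower (25% called, against 18.8% of all genes). Cpt1a, the gate of mitochondrial fat oxidation, went from 981 ± 84.4 to 634 ± 56.5 CPM (-0.63, adjusted p = 0.00749), and the corepressor gene Hr from 2.71 ± 0.668 to 7.15 ± 4.13 CPM (1.39, adjusted p = 0.0167). The deiodinase Dio1, a widely used readout of thyroid hormone action in liver, was not called in any of the 3 comparisons. Its log2 fold change was -0.19 with age, -0.12 for genotype and -0.32 for old KO against young WT, each with a wide SE of 0.367. Dio1 stood at 27.4 CPM in old WT 7 against 161 to 272 CPM in the other old WT libraries, so a change of moderate size could have been missed. For RXR with its retinoic acid receptor partners, 2 of 6 tested targets rose (33.3%, against 18.8% of all genes called). They were Dhrs3 (99 ± 15.7 to 187 ± 29.5 CPM, log2 fold change 0.92, adjusted p = 0.000308) and Cyp26a1, which breaks down retinoic acid (1.86, adjusted p = 0.0277), and 1 was called without young WT 1, 3 or 4 or old WT 5. Among 9 enzymes that make or clear receptor ligands, 4 rose and 1 fell (55.6%, against 18.8% of all genes). The cholesterol hydroxylase Cyp46a1 rose by 1.22 (adjusted p = 0.00597), Hsd11b1, which regenerates active glucocorticoid, by 0.46 (adjusted p = 0.00743), the sterol demethylase Cyp51 by 1.38 (adjusted p = 0.0167) and Rdh11 by 0.67 (adjusted p = 0.0475), and Cyp27a1 had -0.58 (adjusted p = 0.0149).

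None of the target or enzyme lists had a gene called by edgeR between old KO and old WT. The smallest genotype p-values of the lists were those of Cyp7b1 (log2 fold change 0.76, adjusted p = 0.098) and Apoa5 (-0.21, 0.561) for RORalpha, Apoc2 (-0.54, 0.155) and G6pc (-0.61, 0.46) for HNF4alpha, and Hr (-1.24, 0.162) and Cpt1a (-0.36, 0.323) for TRbeta. For LXRalpha they were Abcg1 (-0.61, adjusted p = 0.168) and Lpl (-1.02, 0.307), for PXR Ces2a (0.54, 0.223) and Gstm1 (0.37, 0.307), and for CAR Cyp2c29 (0.29, 0.536) and Cyp2c37 (0.40, 0.613). Nr0b2 (0.76, adjusted p = 0.372) came first for LRH-1, Cyp26b1 (1.03, 0.317) and Cyp26a1 (1.12, 0.414) for RXR, and Cyp27a1 (0.45, 0.223) and Cyp51 (0.73, 0.458) for the enzymes.

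**Figure D5:**
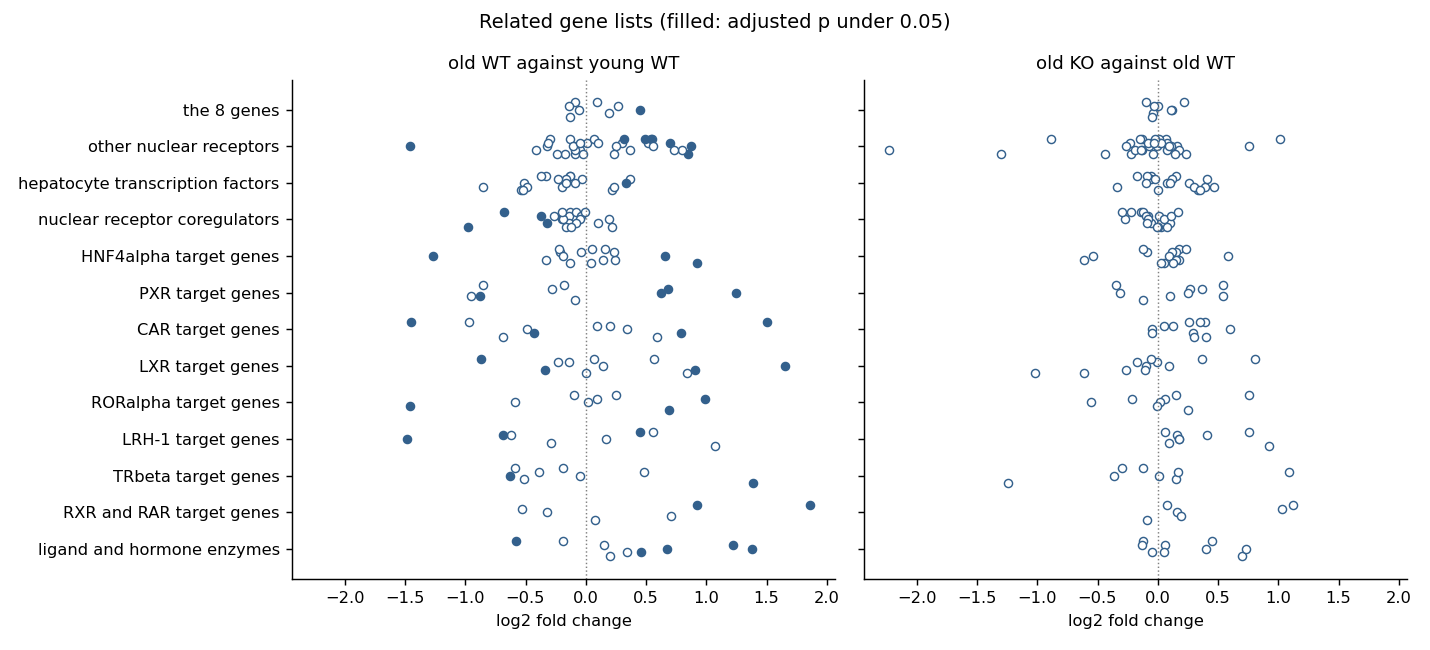
log2 fold change of every tested gene in the related lists, with old WT against young WT on the left and old KO against old WT on the right, and filled points for an adjusted p under 0.05. With age 25 of 76 listed target genes are filled, on both sides of 0, and in the genotype panel no point is filled.

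Markers of other cells were checked beside these values. With age, 1 of 10 macrophage, 2 of 7 T cell, 3 of 7 B and plasma cell and 1 of 6 bile duct markers rose, and 2 of 8 endothelial and 1 of 8 stellate cell markers fell. Over all genes 18.8% were called with age (9.92% higher and 8.91% lower). T cell markers summed to 2.63 to 6.03 CPM in young WT and 3.52 to 11.3 CPM in old WT, and endothelial markers to 181 to 339 CPM and 138 to 247 CPM. Of 9 hepatocyte markers 1 fell. Red blood cell markers were not called with age (0 of 4), adipocyte markers were at most 0.745 CPM in sum, and skeletal muscle markers reached 21.7 CPM in 1 old KO library against at most 0.747 CPM elsewhere. In old KO against young WT livers, where Thrb was also called, 3 of 4 red blood cell markers rose (Hba-a1 by 1.93, Hbb-b1 by 1.83 and Alas2 by 0.90 on the log2 scale), with sums of 38.1 to 87.3 CPM in young WT and 87.7 to 320 CPM in old KO. In the same comparison 3 of 10 macrophage and 2 of 8 endothelial markers fell, 2 stellate cell markers rose and 2 fell, 2 of 9 hepatocyte, 2 of 7 B and plasma cell and 1 of 6 bile duct markers rose, and so did the only skeletal muscle and the only pancreas acinar marker tested. Over all genes 23.3% were called there (12% higher and 11.3% lower). The part of these cells in the levels of the 8 genes was not tested.

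The genes whose log2 CPM followed each of the 8 most closely over the 15 libraries were looked up among 12117 genes of at least 1 CPM, as a description. Thrb was most like Lonrf1 (Pearson r = 0.92), Fam19a2 (0.90) and Pdcd4 (0.90), and Nr1h3 most like Anpep (0.91), Bcl7c (0.90) and Ifrd2 (0.89). For Nr5a2 these were 1190002N15Rik, Nek3 and Gnpda1 (0.88 each), for Nr1i3 Ccdc107 (0.88), D930014E17Rik (0.88) and Brp44 (0.87), and for Rxra Snx17 (0.87), Zfp410 (0.85) and Wsb2 (0.84). Hnf4a was nearest to Pxmp3 (0.82), Fam35a (0.81) and Tmcc1 (0.81), Rora to Fpr2 (0.79), Serpina3g (0.78) and Rabgap1 (0.77), and Nr1i2 to Arid5b (0.77), Setmar (0.76) and Smcr8 (0.75). These values share libraries and groups.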

How the data were processed

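RNA of flash-frozen livers was extracted with Trizol, and the authors made stranded mRNA libraries, demultiplexed the reads with CASAVA, mapped single-end reads with TopHat2 2.0.11 (build mm9), and used HTSeq for gene counts. The authors deposited these counts raw and without pooling. The annotation and strand setting of the counting were not given in the sources used here, so counts of overlapping genes and of close paralogues are uncertain.

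Groups came from the sample titles. Each library was treated as a separate animal, which the labels imply but do not state. The authors' figure legend for these data counts individual mice. The p-values thus weigh a group difference against the spread between libraries. The 8 genes and all related lists were chosen with earlier results of these data known. Counts were filtered (filterByExpr), scaled by TMM and fitted over 15 libraries and 3 groups with the quasi-likelihood test of edgeR 4.0.16 in R 4.3.3, with Benjamini-Hochberg adjustment over 14258 genes and a threshold of 0.05. Standard errors (SE) were back-calculated from the fitted log2 fold change and its quasi-likelihood F statistic. Intervals are 95% intervals from that SE and a t quantile. CPM are TMM-scaled, and exon lengths are the union of GENCODE M1 exons on NCBIM37, equal to mm9; there 37205 of 37991 identifiers had a position. Of 255 list entries, 252 matched by symbol and 2 by a RefSeq synonym, and 1 did not match. Ratios used log2 of CPM plus 0.1 and an exact permutation test over 252 assignments.

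Alternatives were DESeq2 1.42.0, limma 3.58.1 (voom), RLE and upper quartile scaling, no filter, at least 10 counts in every library, only the 10 libraries compared, a replicate block and leaving out each of 15 libraries. The pseudocount of 1 and the leave-outs of the ratios were added after the data were seen. The fit was tested on simulated data with known fold changes. From each list the genes called in a comparison were named, at most 6 in order of p, and otherwise the 2 smallest p-values. Some genes that this rule names, and 1 ratio, are not reported here. For each of the 8 genes the 3 most similar profiles were named. Dio1, Tomm40l and the macrophage and red blood cell markers were named after their values were seen. Promoters came from the RefSeq table for GRCm38.p6 and were matched to NCBIM37 by sequence.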

Additional observations from a re-analysis of the deposited data

Results flagged for a closer look

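Dixon's test was applied to each group of 5 libraries, for the CPM of the 8 genes, the 6 paralogue ratios and the partner ratio, 45 groups in all, of which 4 held a library far from the others. Chance alone marks about 1 in 20 such groups. Nr1i3 was 177 CPM in old WT 7, where the next library was 294 CPM. Rora was 94 CPM in old WT 5, with the next at 122 CPM. The log2 ratio of Nr1h2 over Nr1h3 was -1.1 in old KO 2, against -1.38 in the nearest library, and that of Rxrg over Rxra was -5.77 in old KO 5, against -5.16.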

How the results depend on the processing

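With 8 alternatives and 15 leave-outs, the number of the 8 genes called with age was 1, except 0 in the fit of the 10 wild-type libraries alone and 0 to 2 with a library left out, and for old KO against young WT it was 1 to 2 with a library left out. No alternative or leave-out called any of the 8 for genotype. Over all genes the age count was 1748 to 3284 with a library left out. The genotype count of 76 became 23 with limma voom and 302 with DESeq2, and ran from 9 (without old WT 4) to 108 (without young WT 2) with a library left out. It was 41 without young WT 4, 10, 37 and 42 without old WT 1, 7 and 10, and 13, 14, 17 and 13 without old KO 2, 4, 5 and 6. The cause was not tested.

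Signs turned only for small, uncalled differences. With a library left out, Nr1i3 ran from -0.13 to 0.07 with age and from -0.01 to 0.20 for genotype, where Nr1i2 ran from -0.14 to 0.07, Nr5a2 from -0.07 to 0.02 and Rxra from -0.12 to 0.01, and Rora ran from -0.07 to 0.03 for old KO against young WT. Genotype differences of the ratios ran from -0.19 to 0.06 for Thra over Thrb, -0.03 to 0.08 for Rxrb over Rxra and for Nr1h2 over Nr1h3, and -0.13 to 0.06 for Rxrg over Rxra. Nr1i2 was 0.00 for genotype with DESeq2, of the opposite sign. With a pseudocount of 1, Thra over Thrb (-0.78, adjusted p = 0.0635) and Hnf4g over Hnf4a (0.41, adjusted p = 0.0762) no longer passed with age.

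Same-numbered libraries of different groups did not deviate together (9 pairs, correlations of -0.15 to 0.08, and 0 of 12 libraries closest to their own number). The labels do not say what the numbers stand for. This check cannot exclude a pairing, since paired animals need not deviate together. With a replicate block, which leaves 5 residual degrees of freedom, all-gene counts were 899 with age and 6 for genotype. With age, 13 listed targets in place of 25 were called with age, 1 other nuclear receptor in place of 7, 1 coregulator in place of 4, 0 hepatocyte transcription factors in place of 1, 0 TRbeta, 1 LXR, 1 RORalpha and 2 PXR targets in place of 2, 4, 3 and 4, and 2 ligand enzymes in place of 5. Under the block 1 other nuclear receptor was called for genotype in place of 0, and hepatocyte transcription factors and HNF4alpha targets went from 4 to 1 and from 5 to 2 for old KO against young WT. Nr1i3 turned to 0.09 with age and -0.09 for genotype, Nr1i2 to 0.09 for genotype and Rora to 0.04 for old KO against young WT, and Thrb stayed called with age (0.71, adjusted p = 0.0261).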

Other observations

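Within groups, the 8 genes did not vary together closely enough to pass a correction for 28 pairs. After each group's mean was subtracted from log2 CPM, the pair with the smallest p was Hnf4a and Nr1i2, with Pearson r = 0.71 (p = 0.0116, adjusted p = 0.132) and Spearman rho = 0.50 (p = 0.0964, adjusted p = 0.411) over 15 libraries, by 100000 permutations within groups. Without old KO 5 and young WT 4, the libraries farthest from the median of Hnf4a, r was 0.35. For each pair the 2 libraries left out were the most extreme for its first gene. Such a choice narrows the range and tends to lower r by itself. The lower r therefore cannot show whether a relation rests on those libraries. Nr1i3 and Nr1h3 gave r = 0.75 (p = 0.0144, adjusted p = 0.132) and rho = 0.57 (p = 0.0419, adjusted p = 0.391), and r = 0.40 without old WT 7 and old KO 1. Nr1i2 and Nr5a2 ran in opposite directions, with r = -0.64 (p = 0.0176, adjusted p = 0.132), rho = -0.59 (p = 0.0268, adjusted p = 0.391), and r = -0.37 without old KO 5 and young WT 4.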
